A study of Mus musculus with 6 samples.

Results

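Clusters of accessible elements far from gene ends were examined in mouse CD8+ T cells exposed to palmitate, a saturated fatty acid. A region of the accessibility count matrix counted as distal when it lay more than 1 kb from either end of every protein-coding gene of RefSeq (21631 genes, GRCm38.p6, the assembly of mm10). Distal regions were chained along a chromosome when the gap from one region to the next was at most 12500 bases, and chains of 4 or more regions were kept. This gave 1962 elements in 390 chains, out of 15183 distal regions and 24605 regions in all. The rule read positions only, but which regions the matrix holds may depend on accessibility in these same libraries. Regions called in more control libraries can enter it more often, so falls in palmitate may not be independent of membership. Of the elements, 1955 passed the filter on low counts and 7 did not, and the summed counts of all 390 chains were tested.

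The libraries were 3 from wild-type (WT) CD8+ T cells cultured in T cell medium for 48 hours with palmitate at 100 µM, and 3 from WT CD8+ T cells labelled as control. The same 48 hours are given for the control libraries. The cells of both groups came from pancreas, spleen and lymph nodes and were purified by flow sorting, with 50000 cells per library. The assay was ATAC-seq, in which the Tn5 transposase cuts open chromatin, so that reads in a region measure how accessible it is. The series asked how palmitate affects CD8+ T cell function. Age, sex, the strain behind "WT", the vehicle and any activation of the cells are not stated in the sources used here.

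Enhancers are stretches of DNA that bind transcription factors and raise transcription of genes that can lie far away on the same chromosome. Dense clusters of them, called super-enhancers when they carry unusually much of a histone acetylation mark or of a coactivator, mark the genes that define a cell type. In T cells such clusters surround genes for lineage transcription factors, cytokine receptors and signalling proteins. Here the clusters were found from the positions of the regions in the matrix. No histone mark was measured, so they resemble super-enhancers only in being dense and distal. A gene is named for a chain when its span overlaps an element, or otherwise when its end is the nearest, which does not show that the chain acts on it.

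Depth was 2219136 to 3089230 counts per library. Whether the numbered libraries of a group are separate mice or cultures is not labelled, so p-values reflect only how these libraries vary, possibly for technical reasons. Control replicate 2 stood apart from the other control libraries, with chi-square over degrees of freedom at 2.05 and 2.03 against them, while those 2 libraries had 1.20 between them. All 7 T cell markers, Cd3e, Cd3d, Cd3g, Cd247, Lck, Cd8a and Cd8b1, had an accessible gene-end region. Their summed CPM was 284 to 340 in palmitate and 295 to 327 in control libraries, and none of them passed the test. Only Cd8a and Cd8b1 are CD8 coreceptor genes, so this sum does not tell CD8+ from other T cells. Of the markers of other cells, 1 of 3 for CD4+ T cells, 1 of 7 for B cells, 3 of 6 for myeloid cells, 0 of 3 for NK cells and 1 of 6 for pancreas had such a region. Cd4, Foxp3, Csf1r, Lyz2, Ins1 and Ins2 had none. Summed CPM of the myeloid markers was 36.0 to 42.1 in palmitate and 28.3 to 37.7 in control libraries, where Itgam was higher in palmitate (log2 fold change 0.91, edgeR adjusted p = 0.0151). The CD4 lineage factor Zbtb7b was also higher (46.5, 73.3 and 66.7 CPM in palmitate and 51.4, 34.9 and 48.9 CPM in control, log2 fold change 0.48, adjusted p = 0.0121). The part of other cells in the results below was not tested.

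Sequences of the elements could be shown only where RefSeq lists a transcript start inside them. Such promoter windows, 250 bases before to 50 bases after a start, overlapped 120 of the 1962 elements in 108 of the 390 chains. The windows below are those of the 3 higher and the 3 lower chains with the smallest p that hold one (described further on), and show promoter sequence held by these chains, not the rest of their elements. They are given 5′ to 3′ on the transcript's strand from RefSeq GRCm38.p6. Capitals mark matches on either strand to a GC box (GGGCGG), an ETS core (CCGGAA), a RUNX core (TGTGGT) or AP-1 (TGANTCA), none of which shares letters with another in these windows.
Chaserr, higher chain, chr7:73558346-73558645, minus strand: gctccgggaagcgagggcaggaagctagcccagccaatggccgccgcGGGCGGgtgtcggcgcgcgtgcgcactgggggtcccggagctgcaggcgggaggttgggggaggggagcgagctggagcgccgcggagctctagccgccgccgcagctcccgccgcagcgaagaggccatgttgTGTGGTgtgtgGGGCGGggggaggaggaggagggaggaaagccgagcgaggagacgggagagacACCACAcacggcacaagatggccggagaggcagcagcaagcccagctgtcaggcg
Atp5d, higher chain, chr10:80142025-80142324, plus strand: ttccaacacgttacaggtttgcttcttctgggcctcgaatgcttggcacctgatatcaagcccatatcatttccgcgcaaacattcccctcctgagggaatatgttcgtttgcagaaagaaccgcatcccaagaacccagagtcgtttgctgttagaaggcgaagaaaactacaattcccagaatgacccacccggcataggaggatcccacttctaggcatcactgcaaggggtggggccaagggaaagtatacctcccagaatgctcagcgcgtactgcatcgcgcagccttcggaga
Bbc3, higher chain, chr7:16310011-16310310, plus strand: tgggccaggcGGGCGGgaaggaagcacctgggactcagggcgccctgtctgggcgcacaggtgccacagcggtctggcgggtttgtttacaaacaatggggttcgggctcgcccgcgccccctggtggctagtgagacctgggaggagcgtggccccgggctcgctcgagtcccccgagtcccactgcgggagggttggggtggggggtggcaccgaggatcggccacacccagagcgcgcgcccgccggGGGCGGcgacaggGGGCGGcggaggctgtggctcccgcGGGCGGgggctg
D230017M19Rik, lower chain, chr1:72243743-72244042, plus strand: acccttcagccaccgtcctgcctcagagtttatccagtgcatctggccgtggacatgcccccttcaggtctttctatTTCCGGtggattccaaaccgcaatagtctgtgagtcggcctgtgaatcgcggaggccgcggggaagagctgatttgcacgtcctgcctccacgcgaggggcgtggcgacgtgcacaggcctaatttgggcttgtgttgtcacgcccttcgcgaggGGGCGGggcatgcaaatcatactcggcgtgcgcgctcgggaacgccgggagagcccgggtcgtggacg
Serpinb9, lower chain, chr13:33004291-33004590, plus strand: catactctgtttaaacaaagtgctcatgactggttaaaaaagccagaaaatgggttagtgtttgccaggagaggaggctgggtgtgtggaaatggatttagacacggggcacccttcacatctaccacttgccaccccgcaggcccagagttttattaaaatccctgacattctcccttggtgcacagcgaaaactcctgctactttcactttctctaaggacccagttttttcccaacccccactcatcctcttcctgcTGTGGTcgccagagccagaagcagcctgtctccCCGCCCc
Dock10, lower chain, chr1:80665303-80665602, minus strand: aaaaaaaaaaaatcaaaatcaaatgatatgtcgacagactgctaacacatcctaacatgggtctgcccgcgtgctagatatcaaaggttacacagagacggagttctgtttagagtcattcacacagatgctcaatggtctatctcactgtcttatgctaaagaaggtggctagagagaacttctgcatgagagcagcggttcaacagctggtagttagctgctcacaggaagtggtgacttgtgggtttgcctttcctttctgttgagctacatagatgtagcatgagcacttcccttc
The Chaserr and Bbc3 windows hold 30 CpG dinucleotides each, the D230017M19Rik window 29 and the Atp5d window 14, while the Serpinb9 and Dock10 windows hold 5 each. Over the 26 windows in higher chains the median was 27 CpG and 73.1% held a GC box. Over the 15 windows in lower chains the median was 5 CpG and 40% held a GC box, and over all 32851 RefSeq windows these were 7 CpG and 35.7%. For the 135 windows over elements of any chain they were 13 CpG and 54.8%. The AP-1 motif was in 0% of the windows in higher chains and in 20% of those in lower chains, against 7.81% of all windows. The ETS core was in 7.69%, 6.67% and 14.9%, and the RUNX core in 11.5%, 13.3% and 16.8%, of the windows in higher chains, in lower chains and in all. Of the elements under these windows, 16 of 20 in higher chains were higher, while 0 of 15 in lower chains were lower at an edgeR adjusted p below 0.05. At an unadjusted p below 0.05 there were 3 of those 15, all with a fold change below 0. The elements of lower chains that passed lie outside these windows. Over all 120 chain elements with such a window, 19.2% were higher and 0.833% lower. As the chains were called on sums that include these elements, the 16 of 20 is not independent of the choice of chains. A match describes the letters and is not evidence that a factor binds.

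Under palmitate the clusters lost accessibility more often than they gained it, as other distal regions did. Of the 390 chains, 84 were lower (21.5%) and 30 were higher (7.69%) in palmitate at an edgeR adjusted p below 0.05. Over all 22751 rows of that table, in which each chain is 1 row and every other region its own, 13% were lower and 12.54% higher. Those rows include gene-end regions. Of the 12953 other distal regions tested singly, 20.2% were lower and 3.48% higher. A chain sum also holds more counts than most single regions, so these shares are not matched in power. The lower chains fell by 0.18 to 1.15 on the log2 scale with a median of -0.43, and the higher chains rose by 0.17 to 0.41 with a median of 0.26. The median over all rows was -0.04. The palmitate and control libraries did not overlap in 76 of the 84 lower chains and in 26 of the 30 higher chains. These chains were called on the same values, so little overlap follows from the choice. Of all 390 chains, palmitate libraries were entirely below control libraries in 103 and entirely above in 49. Over all rows, palmitate libraries were entirely below control libraries in 21.2% and entirely above in 18.5%. Of the called chains, 43 of the 84 lower and 12 of the 30 higher passed whichever library was left out. The higher count was 46 without control replicate 2 and 17 without palmitate replicate 3.

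The fold change ran with signal strength. The higher chains had a median summed CPM of 268 and the lower chains one of 72.5, where a sum also grows with the number and width of elements. A second fit used offsets that follow each library's trend on region strength, so that regions are set against others as strong. It called 34 chains lower and 19 higher, against 4.04% lower and 2.08% higher over all rows. Of the 84 lower chains 32 were also called in this fit and 52 were not, and of the 30 higher chains 7 were and 23 were not. The higher chains also more often held a promoter window, in 17 of 30 (56.7%), compared with 14 of 84 lower chains (16.7%) and 27.9% of the 276 chains that passed in neither direction. The DESeq2 Wald test called 40 chains lower and 22 higher, where 5.43% and 8.35% of all rows were called.

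**Figure D1:**
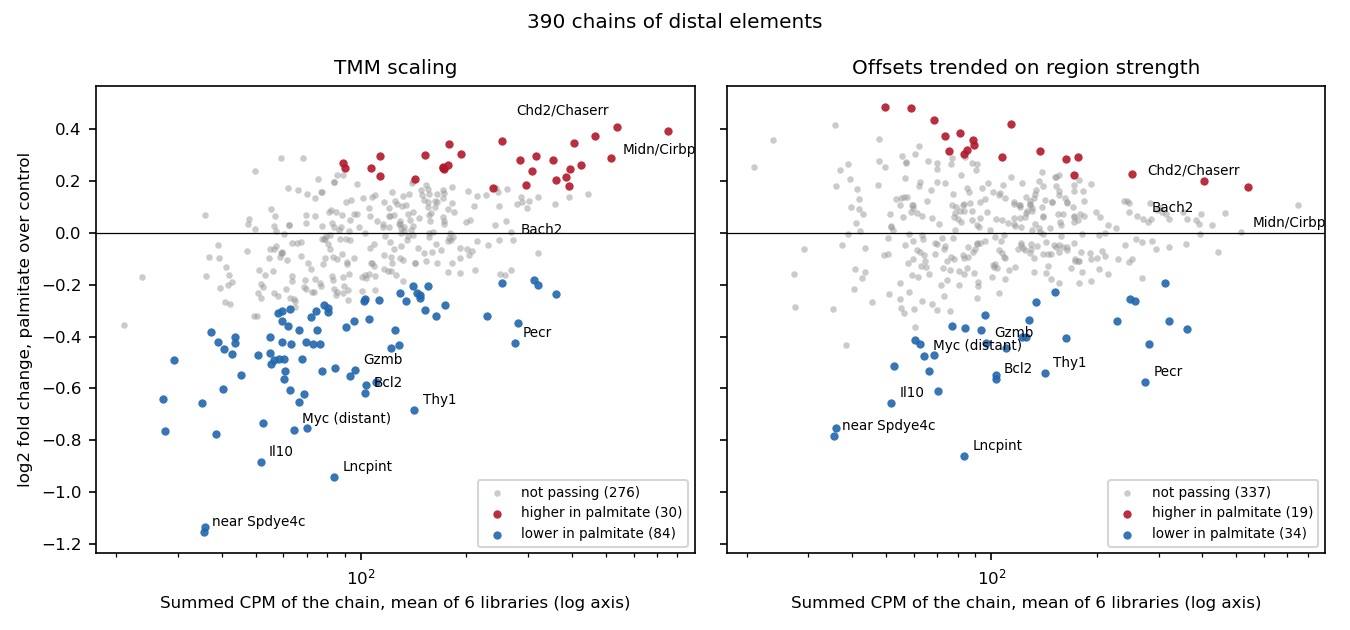
Each point is 1 of the 390 chains, with summed CPM (log axis) against the log2 fold change of palmitate over control, under TMM scaling on the left and under offsets trended on region strength on the right. With TMM scaling 30 chains were higher and 84 lower, and with trended offsets 19 were higher and 34 lower, and the chains at Lncpint, Thy1, Bcl2 and Pecr stayed far below 0 in both.

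The chain with the smallest p lies inside Lncpint, a long noncoding RNA gene induced by p53, at chr6:31072206-31101089. Its 4 elements summed to 65.0, 50.6 and 56.3 CPM in palmitate libraries, against 119, 94.4 and 117 CPM in control libraries. Every palmitate library was below every control library, a log2 fold change of -0.94 ± 0.10 (SE, n = 3 each, edgeR adjusted p = 7.32e-07), and -0.86 with trended offsets (adjusted p = 7.44e-06). Of the chain's 4 elements, 3, 1 and 3 had a peak in the authors' palmitate peak lists and 3, 4 and 4 in the control lists. The chain may therefore rest on the control group, and its fall is not independent of that. Its strongest element had 34.3, 26.8 and 31.4 CPM in palmitate and 76.2, 47.9 and 71.3 CPM in control, and lay 15.99 kb from the first. A second chain of 5 elements in Lncpint was also lower (-0.49 ± 0.11, adjusted p = 0.00136), but not with trended offsets (-0.23, adjusted p = 0.228). The nearest microRNA gene, Mir29b-1, lies 9.11 kb from the chain, with Mir29a beside it. The mature forms are shown because miR-29 is known in mouse T cells to repress the transcripts of Ifng and of T-box factors, and both share the seed (bases 2 to 8, capitals, RefSeq GRCm38.p6).
mmu-miR-29a-3p: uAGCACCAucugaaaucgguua
mmu-miR-29b-3p: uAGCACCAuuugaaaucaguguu
Neither miRNA was measured here.

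Another 2 of the 10 lower chains with the smallest p lie far from any protein-coding gene. The chain at chr2:128451609-128477542, 114 kb from Spdye4c, spans the noncoding genes Gm29010 and Gm36154. It summed to 21.7, 21.7 and 22.2 CPM in palmitate and 57.9, 40.9 and 48.6 CPM in control libraries. The groups were far apart, with a log2 fold change of -1.15 ± 0.15 (edgeR adjusted p = 4.98e-06) and of -0.78 with trended offsets (adjusted p = 0.0021). Of its 4 elements, 1, 2 and 2 had a peak in the palmitate lists and 3, 4 and 4 in the control lists, and 0 had one in all 6. That it is a chain of 4 may rest on the control group, and its fall is not independent of that. A chain at chr15:62807497-62833479 lies 817 kb from the end of Myc, a transcription factor that drives growth and proliferation, with no nearer protein-coding gene end. Its 6 elements summed to 44.9, 48.5 and 49.4 CPM in palmitate and 85.8, 71.5 and 85.6 CPM in control, and 4 of the 6 passed on their own. The chain fell by 0.76 on the log2 scale (SE 0.11, adjusted p = 1.02e-05, trended -0.48, adjusted p = 0.00799). The same limit holds here, as 3, 3 and 3 of its elements had a peak in the palmitate lists and 5, 5 and 6 in the control lists. A stronger chain in Pvt1, the noncoding gene next to Myc, also fell, to 303, 291 and 300 CPM in palmitate against 351, 335 and 341 CPM in control. Its log2 fold change was -0.20 ± 0.06 (adjusted p = 0.0125) and -0.34 with trended offsets (adjusted p = 0.000131). The TMM call was lost without control replicate 1 or 3 or palmitate replicate 2 or 3.

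At genes of T cell surface and signalling proteins, the chain next to Thy1, which encodes a glycolipid-anchored surface glycoprotein of T cells, fell as a whole. Its 8 elements at chr9:44005421-44041623 summed to 116, 93.7 and 118 CPM in palmitate and 173, 170 and 182 CPM in control. All 8 elements had a fold change below 0, and 4 of them passed, and no chain held more lower elements. The summed log2 fold change was -0.68 ± 0.08 (edgeR adjusted p = 1.74e-06) and -0.54 with trended offsets (adjusted p = 6.24e-05). Of the 8 elements, 4, 3 and 6 had a peak in the palmitate lists and 6, 7 and 7 in the control lists, so membership may rest partly on the control group. Prkca, the gene of protein kinase C alpha, had a chain with 83.5, 82.8 and 99.2 CPM in palmitate and 137, 130 and 129 CPM in control (-0.58 ± 0.08, adjusted p = 1.64e-05). Mgat5 makes the branched N-glycans that raise the activation threshold of mouse T cells, and its chain had 55.5, 53.0 and 53.6 CPM in palmitate and 87.1, 80.4 and 82.5 CPM in control (-0.62 ± 0.10, adjusted p = 3.41e-05). Neither pair of groups overlapped. The chain in Sik3, a salt-inducible kinase gene, had 87.8, 78.4 and 81.6 CPM in palmitate and 119, 116 and 137 CPM in control (-0.59 ± 0.09, adjusted p = 1.91e-05).

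The chain inside Bcl2, whose protein blocks apoptosis, had 87.4, 74.0 and 82.0 CPM in palmitate, against 131, 121 and 121 CPM in control. Again no palmitate library reached a control library (-0.62 ± 0.09, edgeR adjusted p = 8.86e-06, trended -0.56, adjusted p = 7.83e-05). The chain reaching into Etv6, the gene of an ETS-family repressor, had 54.0, 55.0 and 47.5 CPM in palmitate and 96.2, 72.5 and 96.5 CPM in control (-0.75 ± 0.11, adjusted p = 1.9e-05). The chain nearest to Pecr, which encodes a peroxisomal enoyl-CoA reductase of fatty acid elongation, had 244, 243 and 216 CPM in palmitate and 329, 286 and 330 CPM in control. It gave the smallest p of all chains with trended offsets (-0.42 ± 0.07, adjusted p = 4.48e-05; trended -0.57, adjusted p = 7.96e-07). Its element over the D230017M19Rik start did not pass (77.2, 79.4 and 79.3 CPM in palmitate, 87.5, 76.8 and 88.7 CPM in control, adjusted p = 0.472), while its other 3 elements fell. All 10 lower chains with the smallest p also passed with trended offsets and whichever library was left out. Where fewer elements had a peak in the palmitate lists, a chain may rest on the control group. These fits do not remove that limit.

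**Figure D2:**
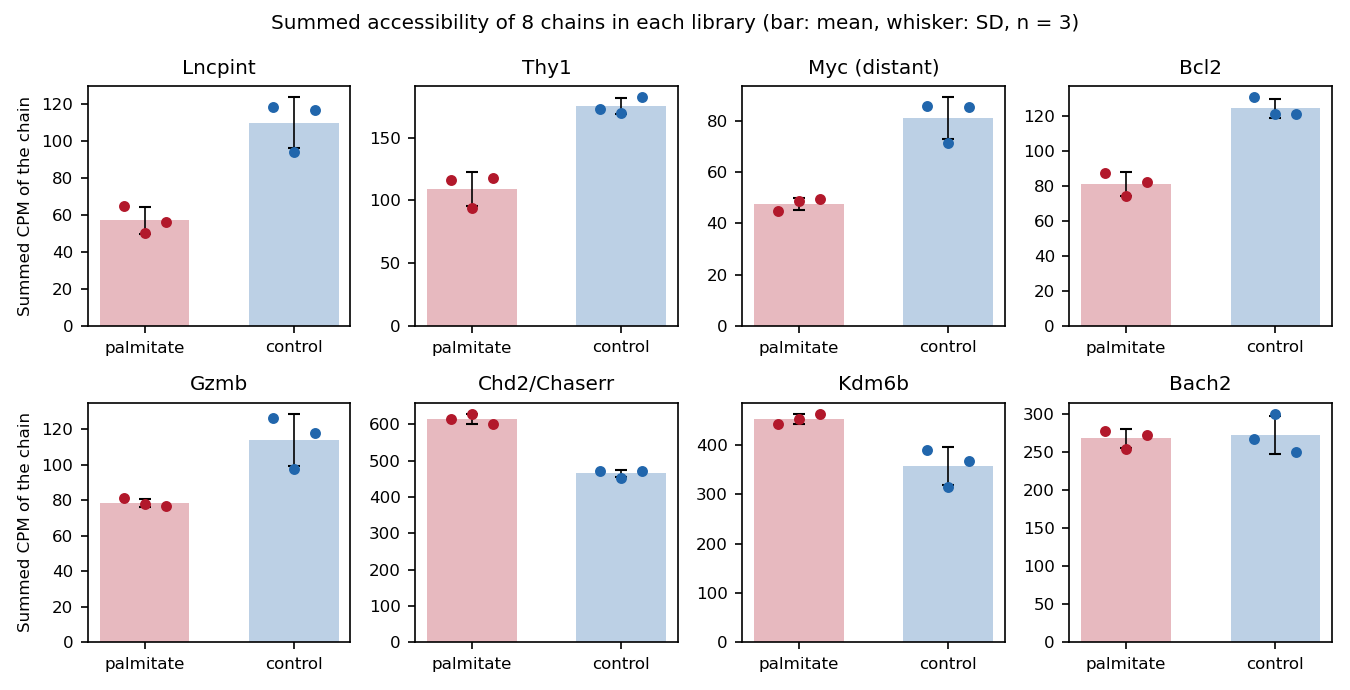
Summed CPM of 8 chains in each library, palmitate left of control, with bars for means and whiskers for SD (n = 3 each). The Lncpint, Thy1, distant Myc, Bcl2 and Gzmb chains had every palmitate library below every control library, the Chd2/Chaserr and Kdm6b chains had every palmitate library above, and the Bach2 chain overlapped (254 to 278 CPM in palmitate and 251 to 301 CPM in control).

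Of the 10 higher chains with the smallest p, 7 held an element over a transcript start, and 7 held at least 1 element with a fold change below 0. The chain between Chd2, a chromatin remodeller gene, and the start of Chaserr, a noncoding RNA gene whose transcript restrains Chd2 in mice, lies at chr7:73517551-73558898. It summed to 616, 628 and 601 CPM in palmitate and 470, 453 and 471 CPM in control. The palmitate libraries were all above, by a log2 fold change of 0.41 ± 0.05 (edgeR adjusted p = 5.9e-06), and by 0.18 with trended offsets (adjusted p = 0.0173). Of its 8 elements 2 passed, both higher, and 5 had a fold change below 0, down to -0.62 without passing, and 1 element held 52.1% of the signal. The element over the Chaserr start, whose CpG-dense window is printed above, had 333, 347 and 332 CPM in palmitate and 230, 211 and 236 CPM in control (0.58 ± 0.06, adjusted p = 3.45e-07). A second chain beyond Chaserr had 422, 440 and 426 CPM in palmitate and 359, 371 and 357 CPM in control (0.24 ± 0.06, adjusted p = 0.00205), but did not pass with trended offsets (0.07, adjusted p = 0.416).

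Kdm6b encodes a demethylase of lysine 27 on histone H3, and its chain had 443, 453 and 462 CPM in palmitate and 389, 315 and 367 CPM in control. All 6 of its elements were above 0 and 4 passed, with a sum at 0.35 ± 0.06 (edgeR adjusted p = 0.000237) and 0.20 with trended offsets (adjusted p = 0.0311). It holds no promoter window. The chain ending at the start of Bbc3, the gene of the pro-apoptotic protein PUMA, had 265, 301 and 282 CPM in palmitate and 238, 203 and 226 CPM in control (0.35 ± 0.07, adjusted p = 0.000349, trended 0.23, adjusted p = 0.0245). The gene-end region of Bbc3 rose too (0.59, adjusted p = 0.000124). The chain through Atp5d, Midn and Cirbp, genes of a mitochondrial ATP synthase subunit, a proteasome-linked protein and a cold-induced RNA-binding protein, had 807, 876 and 871 CPM in palmitate and 670, 617 and 661 CPM in control. All 4 elements passed, 3 of them over a transcript start (sum 0.39 ± 0.05, adjusted p = 8.86e-06), but with trended offsets the sum did not pass (0.11, adjusted p = 0.127).

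The other higher chains of the 10 with the smallest p lay at Zbtb7a, a zinc finger repressor gene (0.37), Psen2, of the gamma-secretase (0.34), Baiap2, an actin adaptor gene (0.29), Sp2, a zinc finger factor gene (0.29), and Hnrnpl with Rinl and Sirt2 (0.26). Their edgeR adjusted p-values were 4.48e-05, 0.000665, 0.000816, 0.000384 and 0.00136. With trended offsets these 5 stood at 0.07, 0.20, 0.07, 0.00 and 0.03 and did not pass (adjusted p = 0.400, 0.0622, 0.476, 0.985 and 0.780). Thus 3 of the 10, at Chd2, Kdm6b and Bbc3, stayed higher when regions of like strength were compared. All 10 passed with TMM scaling whichever library was left out.

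The chains with most elements mostly did not change in sum. The longest, 13 elements over 86.6 kb inside Bach2, a repressor gene that holds T cells back from effector differentiation, had 278, 254 and 272 CPM in palmitate and 268, 301 and 251 CPM in control. The groups overlapped (-0.03 ± 0.07, edgeR adjusted p = 0.797). Within it the outermost elements fell while those between did not pass. The first had 5.91, 3.06 and 3.45 CPM in palmitate and 12.2, 10.97 and 11.5 CPM in control (-1.49 ± 0.31, adjusted p = 0.000716), and the last had 28.7, 26.5 and 22.6 CPM in palmitate and 37.0, 36.6 and 38.04 CPM in control (-0.52 ± 0.15, adjusted p = 0.0103). The first element had a peak in 3 of the authors' 6 peak lists. With trended offsets an element 67.9 kb from the first was higher (0.75, adjusted p = 0.0474).

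Of the 9 next in number of elements, 3 passed, all lower. The chain of 11 elements at Prkcq, the gene of protein kinase C theta at the immune synapse, had 154, 149 and 168 CPM in palmitate and 193, 196 and 182 CPM in control. It fell by 0.28 (SE 0.07, edgeR adjusted p = 0.00448), and kept its call whichever library was left out, but did not pass with trended offsets (-0.11, adjusted p = 0.353). The chain of 12 elements in Foxp1, a factor that keeps mouse T cells quiescent, had 234, 229 and 243 CPM in palmitate and 276, 284 and 249 CPM in control (-0.19 ± 0.07, adjusted p = 0.0276). That call was lost when any library other than control replicate 3 was left out (adjusted p up to 0.120) and with trended offsets (adjusted p = 0.314). The chain of 11 elements in Septin9, a cytoskeletal gene, had 288, 280 and 309 CPM in palmitate and 343, 309 and 343 CPM in control, with overlapping groups (-0.18 ± 0.06, adjusted p = 0.0323, trended -0.19, adjusted p = 0.0402). It was lost without control replicate 1 or 3 or palmitate replicate 1 or 2.

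The other 6 of these chains, at Fam78a with Nup214, Ago2, Ets1, Lrrc74a, Sla with Tg, and Firre, had log2 fold changes of -0.16 to 0.12 and did not pass. Firre is a noncoding RNA gene of the X chromosome, and its chain of 10 elements had 155, 175 and 180 CPM in palmitate and 147, 170 and 150 CPM in control (0.12, edgeR adjusted p = 0.243). It passed with trended offsets (0.28, adjusted p = 0.0148).

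**Figure D3:**
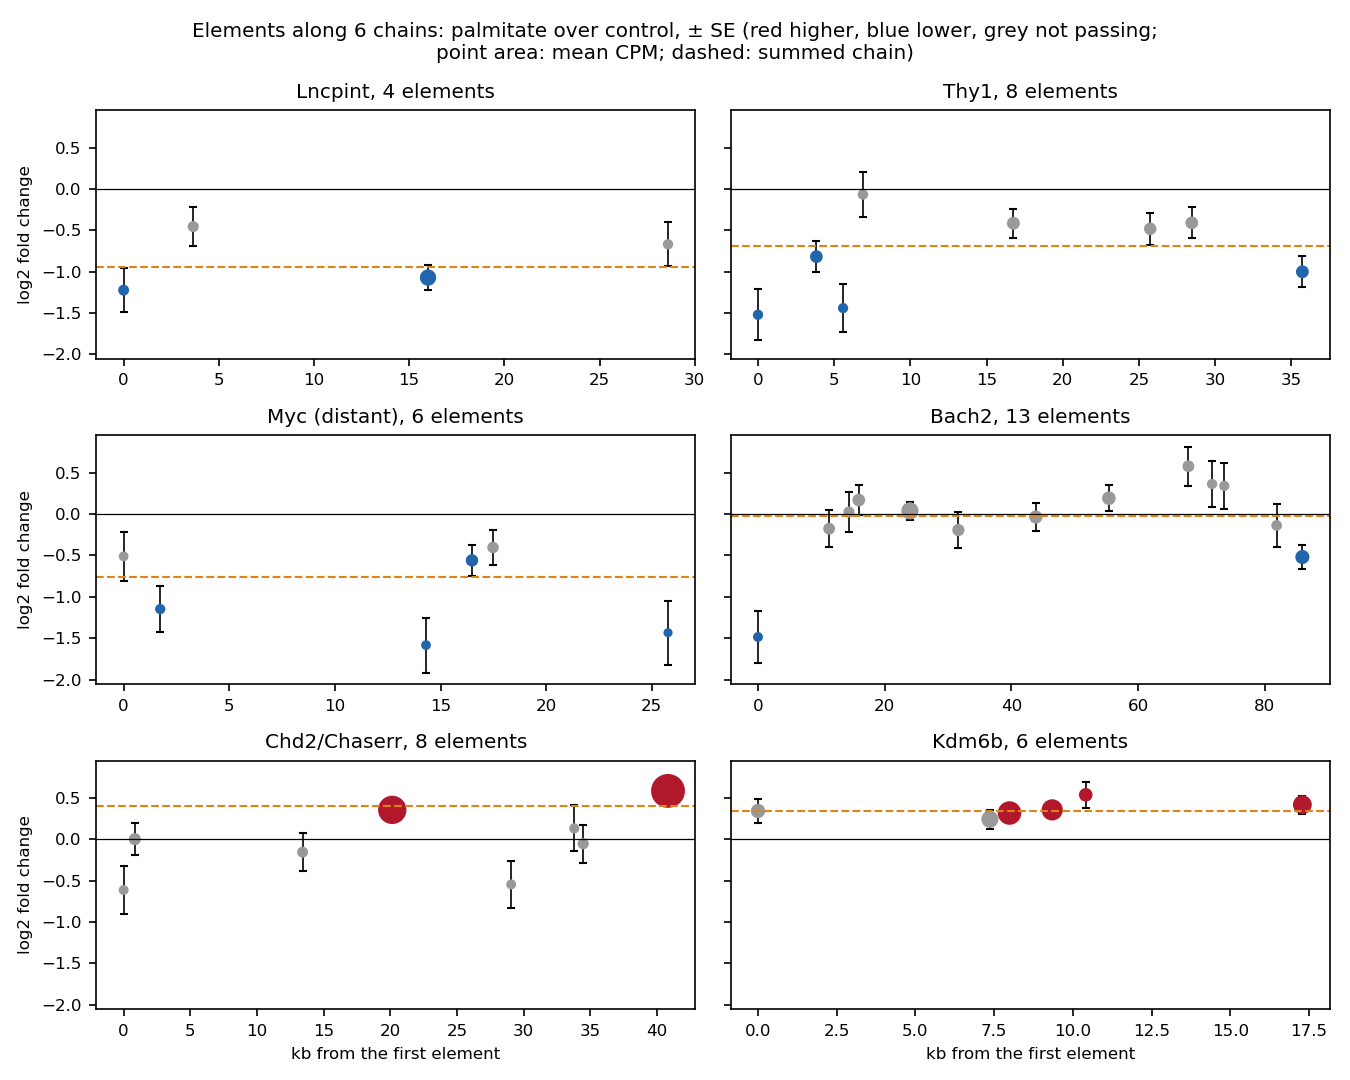
Each point is an element of 1 of 6 chains, by its distance in kb from the first element, with its log2 fold change of palmitate over control and SE, its area by mean CPM, and the summed chain dashed. In the Lncpint, Thy1 and distant Myc chains all tested elements lay below 0, in the Kdm6b chain all lay above, and in the Bach2 chain the first (-1.49) and last (-0.52) elements passed as lower.

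Few genes had more than 1 called chain, and at those few the called chains went the same way. Of 398 genes assigned a chain, 22 had at least 2. Of these, 4 had 2 or more chains lower, 1 had 2 or more higher, and none had called chains in both directions. The other genes could not show a disagreement. Of all called chains, 84 were lower and 30 higher, so agreement at so few genes says little. Foxp1 had 3 chains, all lower. Beside the chain of 12 elements, a chain of 4 averaged 51.9 ± 6.6 CPM in palmitate and 81.0 ± 7.0 CPM in control (SD, n = 3 each, log2 fold change -0.65, edgeR adjusted p = 5.88e-05, trended -0.53, adjusted p = 0.00217). The other chain of 4 averaged 53.8 ± 4.3 CPM in palmitate and 72.6 ± 2.8 CPM in control (-0.43, adjusted p = 0.00274), without passing with trended offsets (-0.26, adjusted p = 0.125). Klf14 (the Lncpint chains), Myc and Spdye4c had both of their chains lower, and Chd2 had both higher.

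Lists of genes of known T cell roles had chains at some of their members. Their counts stand against 21.5% lower and 7.69% higher of all 390 chains, and with trended offsets 8.72% lower and 4.87% higher. Of 62 T cell transcription factors, 20 had a chain, 26 chains in all, of which 9 were lower and 2 higher (trended 4 and 1). The median log2 fold change of these chains was -0.16, against -0.06 over all 390. Besides Foxp1, Myc and Etv6, the lower ones were at Ikzf1, Stat4 and Nfkb1. Ikzf1 encodes the lymphoid factor Ikaros, and its chain of 8 elements had 139, 132 and 133 CPM in palmitate and 158, 162 and 161 CPM in control (-0.25 ± 0.07, edgeR adjusted p = 0.0097). That call was lost without control replicate 3 or palmitate replicate 3 (adjusted p up to 0.063) and with trended offsets (adjusted p = 0.113). The Stat4 chain (-0.20, adjusted p = 0.0428) was lost in 5 of the 6 fits with a library left out, all but that without control replicate 1. Higher were the chains at Nr4a1, an early gene of antigen receptor stimulation (0.22, adjusted p = 0.00818), and Nfatc1, a calcium-dependent factor (0.21, adjusted p = 0.044). Neither passed with trended offsets (adjusted p = 0.640 and 0.325), and both lost the call without palmitate replicate 1 (Nr4a1) or without any of control replicates 1 and 2 and palmitate replicates 2 and 3 (Nfatc1). The chain at Runx3, a factor of the CD8 lineage, was higher only with trended offsets (0.19, adjusted p = 0.113; trended 0.30, adjusted p = 0.0428). Both Ets1 chains, at 303, 309 and 334 CPM in palmitate and 276, 305 and 286 CPM in control for the longer, did not pass (adjusted p = 0.152 and 0.712).

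Antigen receptor signalling genes had 15 chains at 14 of 28 members, of which 5 were lower and 1 higher (trended 2 and 0), beside 21.5% and 7.69% of all 390 chains (trended 8.72% and 4.87%), with a median of -0.09. Besides Thy1 and Prkcq, the lower chains were at Fyn, Rasgrp1 and Cd8a. Fyn, a Src-family kinase gene, had 53.6, 43.5 and 52.1 CPM in palmitate and 81.0, 78.8 and 66.9 CPM in control (-0.60 ± 0.11, edgeR adjusted p = 0.000191, trended -0.43, adjusted p = 0.0159). Rasgrp1, which links diacylglycerol to Ras, had 63.0, 56.0 and 67.8 CPM in palmitate and 89.2, 86.1 and 76.1 CPM in control (-0.43 ± 0.10, adjusted p = 0.00225, trended adjusted p = 0.142). The chain of 7 elements beside Cd8a had 143, 108 and 148 CPM in palmitate and 165, 150 and 154 CPM in control, and palmitate replicate 2 was lowest (-0.23 ± 0.09, adjusted p = 0.0496). The call was lost without it (-0.09, adjusted p = 0.476) and without control replicate 1 or 3. The Cd69 chain, at an early activation marker gene, was higher (245, 246 and 268 CPM in palmitate and 231, 229 and 214 CPM in control, 0.17, adjusted p = 0.0489), and lost the call in all fits with a library left out but that without control replicate 2. Chains at Ptprc and Dgkz did not pass (-0.15 and 0.00, adjusted p = 0.111 and 0.990).

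Of 15 effector molecules 4 had a chain, and 1 passed. The chain of 5 elements beside Gzmb, the gene of the cytotoxic protease granzyme B, at chr14:56275938-56297294, had 81.1, 77.7 and 76.6 CPM in palmitate and 126, 97.7 and 118 CPM in control. No libraries overlapped, and all 5 elements were below 0 (-0.53 ± 0.09, edgeR adjusted p = 0.00012, trended -0.43, adjusted p = 0.00567). Chains at Ifng (-0.16), Fasl (0.04) and Tnf (0.10) did not pass, with adjusted p of 0.349, 0.704 and 0.488. The chain at Serpinb9, whose protein inhibits granzyme B and which is in none of the lists, had 72.1, 71.3 and 83.5 CPM in palmitate and 113, 97.4 and 122 CPM in control (-0.55 ± 0.10, adjusted p = 9.6e-05, trended -0.38, adjusted p = 0.0182). It was named after its values were seen.

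Cytokine signalling genes had 9 chains at 8 of 27 members, with 1 lower and 0 higher (trended 2 and 0) and a median of -0.07. The chain beside Il10, an anti-inflammatory cytokine gene, had 42.9, 39.0 and 26.0 CPM in palmitate and 82.7, 46.9 and 72.7 CPM in control. All 4 elements passed (sum -0.88 ± 0.16, edgeR adjusted p = 0.000172, trended -0.66, adjusted p = 0.0146). The chain at Il21r and Il4ra passed only with trended offsets (-0.16, adjusted p = 0.0526; trended -0.27, adjusted p = 0.00409). Among growth, cell cycle and survival genes 6 of 20 had a chain, and Bcl2 was the 1 that passed, lower. Chains at Mcl1, Ccnd3 and Pim1 had log2 fold changes of 0.14, 0.14 and 0.02 (adjusted p = 0.102, 0.103 and 0.887). At Bcl2l11, the gene of the pro-apoptotic protein BIM, the chain lies in the noncoding gene Morrbid and did not pass (-0.22, adjusted p = 0.109), while the gene-end region of Bcl2l11 rose (0.51, adjusted p = 1.97e-05).

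Of 21 costimulatory and inhibitory receptors 4 had a chain (Cd6, Tnfrsf9, Slamf1 and Havcr2), with log2 fold changes of -0.23 to -0.03, and none passed in either fit. Of 18 adhesion and homing genes 4 had a chain, with a median of 0.16, and none passed with TMM scaling. Ccr9, a gut-homing receptor gene, was higher with trended offsets (85.1, 70.6 and 71.3 CPM in palmitate and 50.5, 71.8 and 61.1 CPM in control, 0.29, edgeR adjusted p = 0.0556; trended 0.43, adjusted p = 0.0147). Of 24 metabolic genes Slc3a2 alone had a chain, which did not pass (0.15, adjusted p = 0.239). A chain at Abcg1, a cholesterol exporter gene in none of the lists and named after its values were seen, was higher in both fits. It had 111, 133 and 132 CPM in palmitate and 100, 104 and 102 CPM in control (0.30 ± 0.08, adjusted p = 0.00901; trended 0.42, adjusted p = 0.00203). The TMM call was lost without palmitate replicate 2 or 3.

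**Figure D4:**
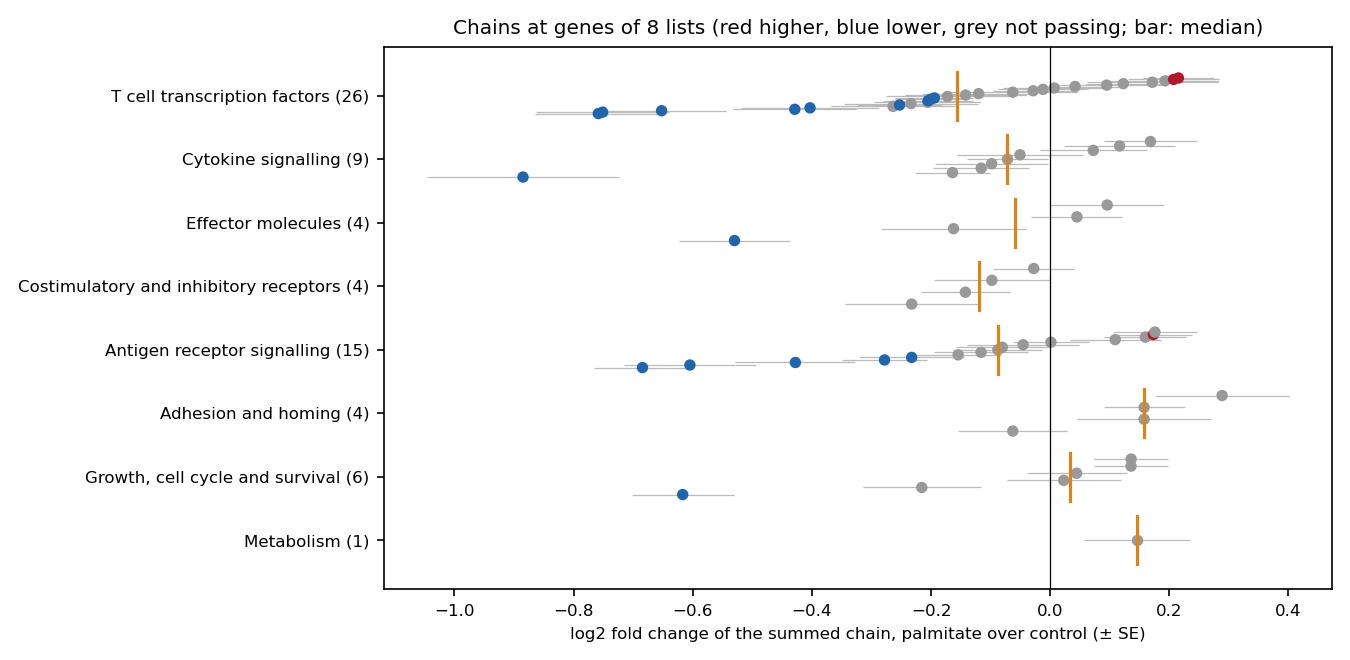
Log2 fold change of palmitate over control, with SE, for each chain at a gene of 8 lists (number of chains in brackets), with an orange bar at the list's median. The 26 chains of T cell transcription factors had 9 lower and 2 higher, and the 15 of antigen receptor signalling had 5 lower and 1 higher.

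Element by element, 231 of the 1955 tested were lower (11.8%) and 88 higher (4.50%) in palmitate, compared with 12.7% lower and 11.9% higher of all 24316 regions tested. With trended offsets 83 were lower and 45 higher (4.25% and 2.30%), near the 4% and 2.08% of all regions. The DESeq2 Wald test called 79 lower and 45 higher, against 5.08% and 7.76% of all regions. Lower elements were spread over 153 chains, 53 of which held at least 2, and 182 chains held no passing element. In the 84 lower chains, 378 of 430 tested elements were below 0, 145 passed as lower and 0 as higher, and 50 chains had every tested element below 0. In the 30 higher chains, 101 of 146 elements were above 0, 45 passed as higher and 3 as lower. As these chains were called on sums of the same elements, such agreement is not independent of the choice of chains. Of all 390 chains, 70 had every tested element below 0 and 19 had every tested element above 0. Only 15 of all 390 chains held both a higher and a lower element. The count of lower elements was 121 without control replicate 3 and 145 to 149 without control replicate 1 or any 1 of the palmitate libraries. The count of higher elements was 54 without palmitate replicate 2 and 57 without palmitate replicate 3.

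Higher calls were mostly at the stronger elements of a chain, while lower calls were about as common at each rank. The strongest element of each chain was higher in 10.5% and lower in 11.5% of 390 chains. The fourth and weaker elements were higher in 1.91% and lower in 12.99% of 785. The median log2 fold changes of these groups were 0.02 and -0.17, and with trended offsets -0.02 and 0.09, in the other order. The difference between ranks was not tested.

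Few elements departed from their own chain. Tested against the whole of their chain, 18 elements passed (0.921% of those tested, against 0.51% of all regions in distal chains of 2 or more), 17 of them lower than the chain and 1 higher. At an unadjusted p below 0.05 there were 275, and limma-voom called 69. The count was 73 without control replicate 2, 0 without control replicate 3 and 1 to 4 without control replicate 1 or any palmitate library, and with trended offsets 1 element passed. That element lies inside the thyroglobulin gene Tg, 1.80 kb from an end of Sla, which encodes an adaptor that dampens antigen receptor signalling, at chr15:66778715-66779021. It had 7.88, 8.49 and 6.13 CPM in palmitate and 0.871, 2.99 and 3.74 CPM in control, a log2 difference from its chain of 1.66 (edgeR adjusted p = 0.016, trended 2.13, adjusted p = 0.0218).

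Below their chains were elements at Cblb, a ubiquitin ligase gene that restrains T cell activation, Sp2, Fam169b, Pim1 and Trim8. The Cblb element had 3.54, 3.06 and 2.68 CPM in palmitate and 12.2, 10.3 and 10.9 CPM in control, while its chain averaged 79.0 ± 7.7 CPM in palmitate and 81.7 ± 3.4 CPM in control (SD, n = 3 each). Its log2 difference from the chain was -1.78 (edgeR adjusted p = 0.00578). The Cblb element had a peak in the 3 control lists only. Its place among the regions may therefore rest on the group in which it is higher, and its fall is not independent of that. The Pim1 element, beside the gene of a survival kinase, had 13.8, 13.2 and 16.9 CPM in palmitate and 38.7, 21.3 and 30.9 CPM in control (difference -1.04, adjusted p = 0.0139). In the Sp2 chain the element over the start carried the rise (470, 432 and 467 CPM in palmitate and 357, 320 and 339 CPM in control). Another, 29.3 kb from the first, lay below it (66.2, 63.1 and 72.4 CPM in palmitate and 77.0, 78.1 and 79.1 CPM in control, difference -0.51, adjusted p = 0.00787).

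Most gene ends of lower chains were not lower. Of the lower chains, 59 had a measured gene-end region of an assigned gene. Of these regions, each the strongest at its gene, 18 were higher and 4 lower in palmitate, with a median log2 fold change of 0.12. For the chains that passed in neither direction, 192 such regions had a median of 0.18. Over all 9408 gene-end regions tested, weaker ones included, the median was 0.14, and 25.04% were higher and 2.47% lower. Thy1 (-0.55, edgeR adjusted p = 0.0108) and Gzmb (-0.51, adjusted p = 0.0313) fell at both the gene end and the chain. With trended offsets neither of these gene ends passed (edgeR adjusted p = 0.0529 and 0.0787). Bcl2 (0.10, adjusted p = 0.556), Myc (-0.03, adjusted p = 0.867), Etv6 (0.02, adjusted p = 0.914) and Prkca (-0.05, adjusted p = 0.757) did not pass at the gene end, and Sik3 was higher there (0.23, adjusted p = 0.0348). Of the higher chains, 8 of 19 measured gene ends were higher and 0 lower. With trended offsets 0 gene ends of lower chains were higher and 1 lower, and 1 of higher chains was higher.

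Set beside distal regions outside such chains, a smaller share of the elements was called lower. Of the chain elements 11.8% were lower and 4.50% higher, against 20.2% and 3.48% of 12953 other distal regions. With trended offsets the shares were closer, at 4.25% lower and 2.30% higher for chain elements and 5.81% and 1.78% for other distal regions. With TMM scaling the lower share was 21.9% for isolated regions, 18.3% in chains of 2, 15.8% in chains of 3, 12.3% in chains of 4 to 5, 10.5% in chains of 6 to 8 and 12.9% of 155 elements in chains of 9 to 13. With trended offsets these were 6.13%, 4.92%, 6.19%, 4.02%, 4.61% and 4.52%, with no steady order by length. Chain elements were also stronger, at a median of 16.8 CPM compared with 11.97 CPM, so distal regions were split into quintiles by mean accessibility. From the weakest quintile to the strongest, 24.7%, 15.7%, 11.5%, 10.4% and 7.39% of chain elements were lower, compared with 25.9%, 22.0%, 21.6%, 19.7% and 10.6% of other distal regions. In the next strongest quintile the median log2 fold change was -0.06 for 528 chain elements and -0.19 for 2453 other distal regions.

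Tested over libraries, chains held 15.7%, 15.8% and 16.05% of all distal counts in palmitate, against 15.1%, 15.1% and 15.0% in control. The groups did not overlap, and the difference of 0.80 percentage points had p = 0.1 in a two-sided exact permutation test, the smallest that 3 against 3 libraries allow. Within quintiles of strength the share was 5.61% ± 0.13, 11.3% ± 0.33, 15.2% ± 0.26, 18.4% ± 0.17 and 16.5% ± 0.11 in palmitate and 5.12% ± 0.13, 10.6% ± 0.17, 13.9% ± 0.098, 17.2% ± 0.072 and 16.4% ± 0.099 in control (SD, n = 3 each). The groups did not overlap in the weaker 4 quintiles (exact permutation p = 0.1 each, 0.125 adjusted over the 5) and did in the strongest (p = 0.6). Of all counts, distal ones included, chains held less in palmitate (4.82%, 4.76% and 4.87%, against 5.26%, 5.33% and 5.18%), as distal regions together did (30.4% ± 0.28 in palmitate and 34.9% ± 0.42 in control).

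The lists of peaks were set beside these shares. The authors' peak lists held a peak at 75.9%, 77.8% and 79.2% of the chain elements in palmitate and at 77.7%, 88.2% and 89.2% in control. For other distal regions these were 64.7%, 67.9% and 65.9% in palmitate and 76.9%, 88.1% and 90.2% in control. Control replicate 1, the library with fewest counts, lay within the palmitate range for chain elements. The difference in share was 0.16 percentage points when only regions found in all 6 lists were chained and 0.13 with a gap of 5 kb. It was 1.36 percentage points when elements with a promoter window were left out.

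**Figure D5:**
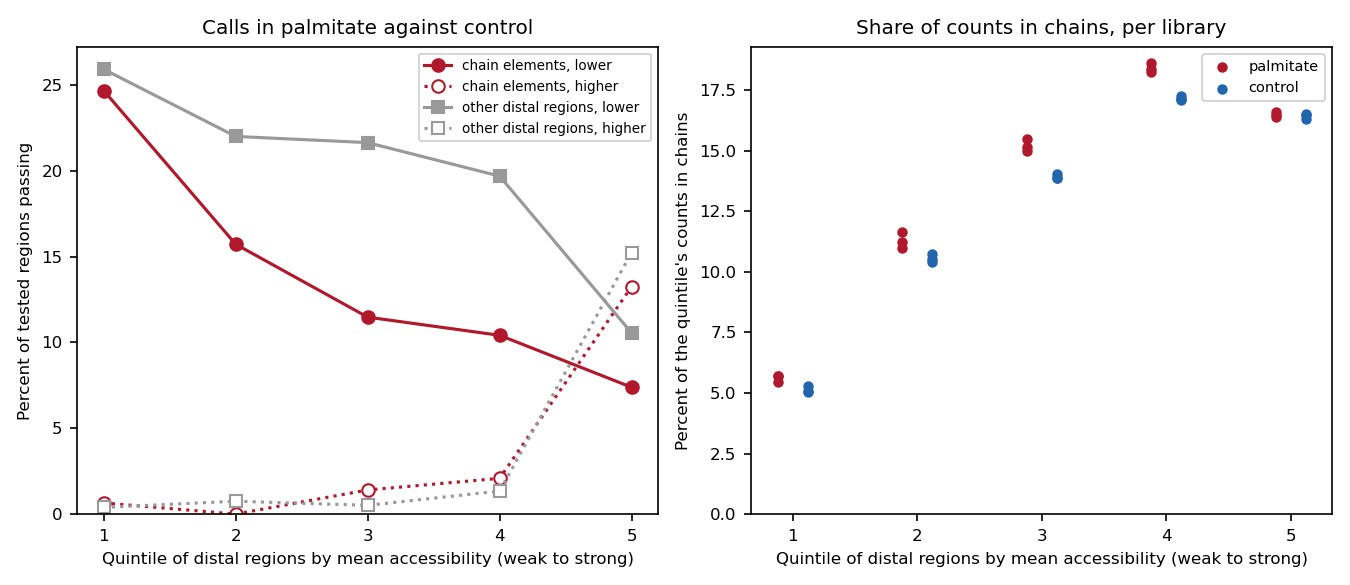
Left, percent of tested regions lower (solid) or higher (dotted) in palmitate, for chain elements and for other distal regions, by quintile of mean accessibility. Right, percent of each quintile's distal counts that lie in chains in each palmitate and control library. Chain elements were lower less often than other distal regions in each quintile, and the palmitate libraries lay above the control libraries in the weaker 4 quintiles.

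Ranked by total signal, as super-enhancers are, the chains were not the whole upper end. Among 10751 distal chains, isolated regions included, a line of slope 1 touched the scaled curve at 91.0 summed CPM, which left 715 above it. Of these 219 were chains of 4 or more (56.2% of the 390), 258 had 2 or 3 regions and 238 were isolated regions, and 45 of the top 100 were chains of 4 or more. Of the 219 chains of 4 or more above that point, 28 were higher and 31 lower in palmitate with TMM scaling. These shares are close to the 12.54% higher and 13% lower over all rows of the table with chains summed. Of the 171 at or under it, 2 were higher and 53 lower. This ranking used accessibility, as a description, with no test.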

How the data were processed

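ATAC-seq libraries of 3 palmitate-treated and 3 control samples were analysed from the authors' files. The deposited matrix holds raw read counts per region, and each deposited peak list holds the peak score of the authors' peak calling for 1 library, used here only for whether a peak overlaps a region. The submitters' processing notes name the build mm10 and edgeR 3.40.2, MACS2 2.2.8, Picard 2.23.8, Bowtie2 2.5.1 and Trim Galore 0.6.10. The sources used here do not give how regions were merged, any shift of reads to the Tn5 cut, or the read counter. All regions of the matrix were used as given, so regions called in more control libraries can enter it more often.

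Distances were taken to RefSeq protein-coding genes. Regions were tested in R 4.3.3 with edgeR 4.0.16, by its quasi-likelihood F-test, with TMM factors (0.954 to 1.05), filterByExpr (289 regions removed, 24316 tested), two-sided, with Benjamini-Hochberg adjustment at 0.05 over the whole table. For chains, the counts of elements were summed and the sums tested with all other regions (22751 rows). CPM uses TMM-scaled library sizes. An element was set against its chain with edgeR's diffSpliceDGE over all distal chains of 2 or more regions. Trended offsets follow a loess curve, span 0.3, of log counts in a library against the mean over libraries. For elements against their chain they were applied in a fit written for this work. Each SE is the size of the log2 fold change divided by the root of F. Alternatives were DESeq2 size factors, a Wald test in DESeq2 1.42.0, limma-voom in limma 3.58.1, total counts, no count filter, a replicate block, each library left out, and other chaining rules. The steps were tested on simulated counts with known changes. Members, lists and tests were chosen with earlier results of these data known. Named are the 10 chains with most elements, the 10 chains in each direction with the smallest p, up to 5 elements in each direction that passed against their chain, and at most 5 chains per gene list, those with most elements. Other chains are named for their counts in a list or where said to be chosen after their values were seen. Same-numbered libraries did not deviate together (correlations of -0.10 to 0.00), so they were not treated as pairs.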

Additional observations from a re-analysis of the deposited data

How the results depend on the processing

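Counts of chains depended on scaling and on the chaining rule. Counts are given as higher then lower in palmitate, against 30 and 84 chains and 88 and 231 elements with the settings of the report. Total-count scaling, which moves the median log2 fold change of all rows to -0.16, gave 11 and 149 chains and 40 and 347 elements. Trended offsets gave 19 and 34 chains and 45 and 83 elements, and the DESeq2 Wald test gave 22 and 40 chains and 45 and 79 elements. A gap of 5 kb gave 5 and 5 of 37 chains (12 and 16 elements), and a gap of 25 kb gave 60 and 218 of 808 (177 and 661). Chains of 3 or more gave 57 and 242 of 938 (137 and 489), and chains of 6 or more 10 and 23 of 107 (36 and 84). Regions in all 6 lists gave 5 and 19 of 72 chains (13 and 44 elements). A distance of 2.5 kb from gene ends gave 17 and 78 chains (57 and 204). Without elements over a promoter window, chosen after seeing the data, 19 and 88 chains passed. These chaining rules change how many chains there are. The cause of the other shifts was not tested.

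With 1 library left out, 17 to 46 chains were higher and 60 to 83 lower, 54 to 101 elements higher and 121 to 272 lower, and 0 to 73 elements stood against their chain. The same with trended offsets, chosen after seeing the data, gave 9 chains higher and 22 lower without control 1, 34 and 42 without control 2, 7 and 21 without control 3, 11 and 28 without palmitate 1, 10 and 22 without palmitate 2, and 8 and 27 without palmitate 3. Elements against their chain numbered 18 in the report, 69 with limma-voom, 1 with trended offsets and 2 in regions of all 6 lists. With a replicate block, 25 and 80 chains, 82 and 211 elements, and 13 elements against their chain passed. Same-numbered libraries did not correlate, but with 3 libraries per group this cannot exclude a pairing, and the labels name none. The difference in the share of distal counts, 0.80 percentage points in the report, was 0.13 with a gap of 5 kb, 0.40 in chains of 6 or more, 0.16 in regions of all 6 lists, 1.36 without promoter windows and 0.71 to 0.87 with 1 library left out. For the chains and elements named by rule, none changed sign in a way that was called. Of 871 values under an alternative, 808 kept their side of the threshold, 38 lost the call and 25 gained it. Among those that kept their side, some that did not pass changed sign, such as the Bach2 chain (-0.03 in the report, 0.05 with trended offsets). Weak elements are limited by depth, since the libraries hold 2219136 to 3089230 counts.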
